A study of Mus musculus with 13 samples.

Results

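The genes that encode Kv4 potassium channels and the subunits that sit beside them were followed through single neurons of the mouse DRG (dorsal root ganglion), sorted as muscle proprioceptors from the embryo to the adult. They are 9 of the 50508 gene rows of the count files. *Kcnd1*, *Kcnd2* and *Kcnd3* encode the pore of the channel. *Kcnip1*, *Kcnip2*, *Kcnip3* and *Kcnip4* encode the KChIP proteins, and *Dpp6* and *Dpp10* encode the peptidase-like DPP proteins. The genes were chosen by family, with earlier results of these data known, and all 9 had UMIs (Unique Molecular Identifiers, a proxy for transcripts) in the neurons.

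Kv4 channels carry the somatodendritic A-type potassium current, which opens below the threshold of the action potential and inactivates quickly, and so delays and spaces firing. KChIPs are calcium-binding proteins of the neuronal calcium sensor family that bind the intracellular end of the pore protein, bring it to the membrane and set how fast it inactivates and recovers. DPPs are membrane proteins related to dipeptidyl peptidases, without enzyme activity, that speed the gating of the channel. Which KChIP and which DPP a neuron makes therefore helps to set the time course of its A-type current. Proprioceptors are the DRG sensory neurons that report muscle length from spindles (groups Ia and II) and muscle tension from Golgi tendon organs (group Ib).

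Single fluorescent neurons were sorted from dissociated DRG of mice of either sex into plates of 96 wells and sequenced by Plate-seq. The series holds 5 plates of adult neurons (older than 56 days), 4 of P12, 2 of P0 and 2 of E14.5. At adult, P12 and P0 the neurons carried PV:Cre+/-;Rx3:Flp+/-;Ai65+/-, so that tdTomato marks cells that have expressed both parvalbumin and Runx3, and at E14.5 they carried TrkC:tdTomato, a reporter of TrkC, a receptor that sensory neurons other than proprioceptors can also express. By the labels 2 animals were used for E14.5, 6 for P0, 4 for P12 and 6 for the adult, but not which animals are on which plate. Reporter and stage cannot be told apart at E14.5. The plates of a stage are called replicates here, and p-values measure the spread between plates. By the study's account there were fewer adult experiments than adult plates, so some of these plates share an experiment. The tests treat plates as independent, which such plates may not be.

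The authors' annotation kept 586 of 1248 wells as neurons, 208 adult, 154 P12, 55 P0 and 169 E14.5. Mean depth per neuron was 11174 UMIs at E14.5, 41594 at P0, 30623 at P12 and 44511 in the adult. All 13 plates used the same 96 well barcodes. The 5 proprioceptor markers (*Pvalb*, *Runx3*, *Ntrk3*, *Etv1* and *Whrn*) had UMIs at every stage and together took between 1668 and 5060 CPM (UMI counts scaled to the total of each neuron) per plate. Satellite and Schwann cell markers (8 genes) summed to between 11.3 and 22.6 CPM at E14.5, 516 and 636 at P0, 215 and 603 at P12 and 308 and 851 in the adult. On any plate the 5 nociceptor markers summed to at most 17.8 CPM, the 4 cutaneous mechanoreceptor markers to at most 220.9, the 2 endothelial markers to at most 8.28 and the 2 fibroblast markers to at most 27.2. E14.5 clusters 3 (34 neurons) and 4 (6 neurons) went against the label. Their proprioceptor markers summed to between 688 and 738 CPM, beside 1727 to 2113 CPM in E14.5 clusters 1 and 2, and their cutaneous mechanoreceptor markers to between 217 and 446 CPM, beside 16.2 to 43.1 CPM. They are part of the E14.5 values below, and with E14.5 clusters 1 and 2 alone 3 of 8 genes were called at P0, 8 at P12 and 7 in the adult, against 3, 8 and 8 with all E14.5 neurons, where 27.8%, 51.2% and 57.6% of all genes were called in either direction.

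The promoters of *Kcnip1*, *Kcnip2* and *Dpp10* are shown first. *Kcnip1* and *Kcnip2*, which encode the same kind of subunit, differed in opposite directions between adult clusters, and *Dpp10* was lower in adult cluster 1 than in each of the other clusters. Each window holds the 250 bases before a RefSeq start (GRCm38.p6), printed 5′ to 3′ on the gene's own strand, which is the minus strand for all 4 windows. Capitals mark a GC box, GGGCGG on either strand.

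*Kcnip1* first start, chr11:33993194-33993443: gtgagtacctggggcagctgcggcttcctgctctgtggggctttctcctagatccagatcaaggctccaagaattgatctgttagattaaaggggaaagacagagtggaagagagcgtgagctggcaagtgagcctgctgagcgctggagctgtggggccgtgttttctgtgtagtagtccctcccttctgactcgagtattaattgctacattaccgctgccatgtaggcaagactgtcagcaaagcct
*Kcnip1* second start, chr11:33843687-33843936: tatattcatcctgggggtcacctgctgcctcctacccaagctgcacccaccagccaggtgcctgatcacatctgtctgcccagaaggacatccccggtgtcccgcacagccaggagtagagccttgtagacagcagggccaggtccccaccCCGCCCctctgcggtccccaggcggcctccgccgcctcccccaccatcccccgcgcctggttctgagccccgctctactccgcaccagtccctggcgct
*Kcnip2*, chr19:45816064-45816313: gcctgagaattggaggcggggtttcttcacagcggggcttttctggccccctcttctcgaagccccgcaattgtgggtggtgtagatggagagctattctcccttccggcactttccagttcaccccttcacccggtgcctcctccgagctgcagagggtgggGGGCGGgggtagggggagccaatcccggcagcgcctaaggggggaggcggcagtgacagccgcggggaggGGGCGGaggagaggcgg
*Dpp10*, chr1:124045560-124045809: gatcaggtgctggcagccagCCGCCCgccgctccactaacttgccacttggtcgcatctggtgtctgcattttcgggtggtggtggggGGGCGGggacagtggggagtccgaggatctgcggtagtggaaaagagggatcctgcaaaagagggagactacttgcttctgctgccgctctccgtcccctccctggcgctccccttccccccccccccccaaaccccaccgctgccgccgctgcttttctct

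RefSeq starts matched 8 of the 9 genes, with 15 windows in all. *Kcnip1* has 3 starts, with a GC content of 52.8%, 67.6% and 44.0% from the first to the third. The single *Kcnip2* window has 66.8% and that of *Dpp10* 65.2%, beside a median of 52.4% over 32851 promoter windows of the same length. *Kcnip2* and *Dpp10* hold 2 GC boxes each, the second *Kcnip1* start holds 1, and its other starts hold none. Of all windows, 32.7% hold a GC box. The core letters of the Runx motif, TGTGGT, are in none of the 15 windows and in 14.0% of all windows. These matches describe the letters of the windows and nothing more.

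Members of the family were called higher at different steps of development (levels are CPM averaged over the neurons of a plate, then given as mean ± SD over plates). *Dpp6*, *Kcnip2* and *Kcnip3* were higher at P0 than at E14.5, *Kcnip1* and *Kcnip4* were higher at P12 than at P0, and *Dpp10*, *Kcnd1* and again *Kcnip1* were higher in the adult than at P12. No gene of the family was called lower in any of these adjacent comparisons. UMIs were summed per plate and tested in edgeR (quasi-likelihood F-test) over 11939 genes, and a gene was called at a Benjamini-Hochberg adjusted p under 0.05. *Kcnd3*, with 33 UMIs in all neurons, did not pass edgeR's filter on low counts, so 8 of the 9 genes were tested. In bulk sums of this kind fewer neurons with a transcript and fewer transcripts per neuron cannot be told apart, and shares of neurons with a UMI are therefore given below.

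**Figure D1:**
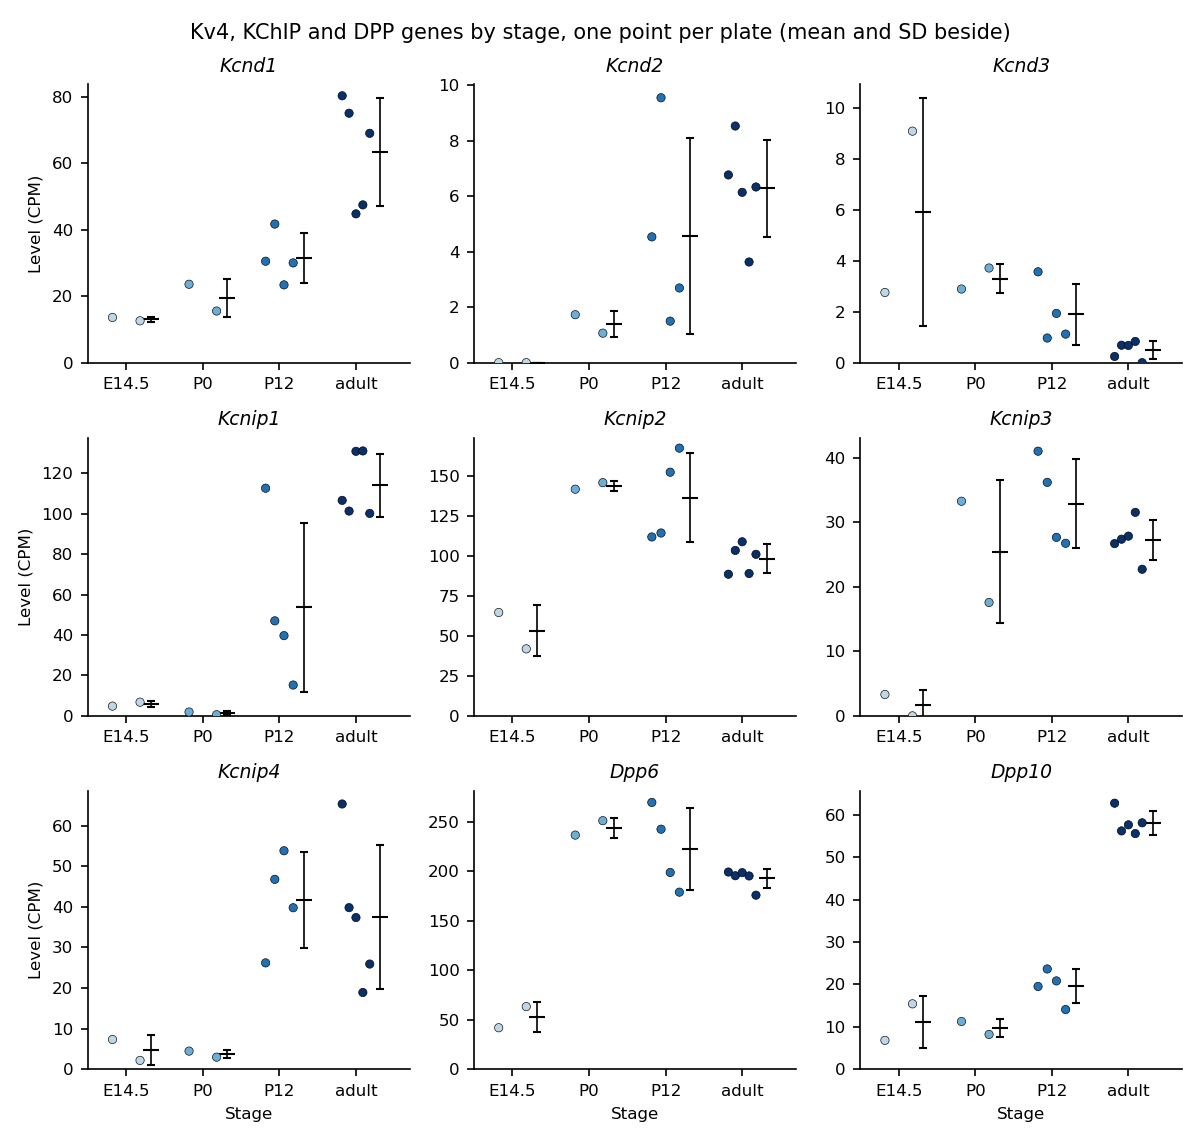
Level of each of the 9 genes (CPM, axis from 0, its range differs between panels) at each stage. Each point is the mean over the neurons of 1 plate, and the dash with its bar is the mean ± SD over plates (bars are drawn from 0 upwards). *Kcnip1* lies between 0.576 and 6.78 CPM on the E14.5 and P0 plates and between 100.2 and 131.1 CPM on the adult plates, and the adult plates of *Dpp10* lie apart from those of every earlier stage.

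Of the pore genes, *Kcnd1* was higher at P12 than at E14.5 and higher again in the adult. It was at 13.6 and 12.6 CPM on the E14.5 plates and at 23.6 and 15.5 CPM on the P0 plates. The P12 plates gave 30.5, 41.7, 23.4 and 30.0 CPM. The adult plates gave 80.3, 75.1, 44.8, 47.5 and 69.0 CPM, and the lowest of them lay above the highest P12 plate. The rise from P12 to adult passed the test (log2 fold change 0.89, standard error (SE) 0.20, adjusted p = 0.00938). It was not called with P12 replicates 1 and 2 alone as the P12 group (adjusted p = 0.0981). P12 against P0 gave a log2 fold change of 0.65 (adjusted p = 0.125) and P0 against E14.5 one of 0.51 (adjusted p = 0.302), neither called, while P12 against E14.5 was (log2 fold change 1.16, adjusted p = 0.00577).

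*Kcnd2* and *Kcnd3* were sparse. *Kcnd2* had 0 UMIs in 169 E14.5 neurons, which allows a level of up to 1.59 CPM and a share of neurons with a UMI of up to 1.78% (counting error only, and no limit on the share that express the gene). It was at 1.73 and 1.06 CPM at P0, at 4.53, 9.55, 1.50 and 2.69 CPM at P12, and at 6.76, 8.53, 6.14, 3.63 and 6.33 CPM in the adult, where 33 of 208 neurons had a UMI. The P12 and adult plates overlapped, and no adjacent pair of stages was called for *Kcnd2* (adjusted p between 0.111 and 0.470). *Kcnd3* had 11 UMIs at E14.5, 7 at P0, 9 at P12 and 6 in the adult, with plate means of 5.91 ± 4.47 CPM at E14.5 and 0.486 ± 0.350 CPM in the adult, and was not tested.

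Among the KChIP genes, *Kcnip2* was present from the embryo on. Its E14.5 plates were at 64.7 and 41.9 CPM, and its P0 plates at 141.9 and 146.0 CPM. P0 was higher than E14.5 (log2 fold change 1.37, SE 0.32, adjusted p = 0.00654), though without E14.5 replicate 2 this was not called (adjusted p = 0.0765). At P12 *Kcnip2* was at 112.0, 114.5, 152.5 and 167.6 CPM and in the adult at 88.7, 103.6, 109.0, 89.1 and 101.1 CPM, so that every adult plate lay under every P12 plate. This last difference was just outside the threshold (log2 fold change -0.64, SE 0.20, adjusted p = 0.0503). It was called in 8 of 17 alternatives, DESeq2 among them (adjusted p = 0.0297).

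*Kcnip1* followed another course, low at E14.5 and P0 and higher by P12. The E14.5 plates were at 4.82 and 6.78 CPM and the P0 plates at 1.90 and 0.576 CPM, from 3 UMIs in 55 neurons. At P12 it was at 112.6, 47.0, 39.7 and 15.3 CPM, a spread between plates wider than at any other stage. The adult plates were at 106.6, 101.3, 130.9, 131.1 and 100.2 CPM. P12 was higher than P0 with a log2 fold change of 5.67 (SE 0.71, adjusted p = 9.01e-05). The ratio of pooled UMIs was 47.2, with a 95% counting interval of 16.0 to 230. The further rise to the adult passed the test (log2 fold change 1.11, SE 0.30, adjusted p = 0.0241), but P12 replicate 1 alone was as high as the adult plates. The adult call was lost with P12 replicates 1 and 2 as the P12 group (adjusted p = 0.123), without adult replicate 4 (0.0502) and without P12 replicate 3 (0.0730). The 4 P12 plates hold different P12 clusters, which are described below.

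*Kcnip3*, which encodes the KChIP also known as DREAM and calsenilin, appeared between E14.5 and P0 and then stayed in one range. It was at 3.32 and 0 CPM at E14.5 (3 UMIs in all), at 33.3 and 17.6 CPM at P0, between 26.8 and 41.1 CPM at P12 and between 22.7 and 31.6 CPM in the adult. The rise to P0 had a log2 fold change of 3.96 (SE 0.63, adjusted p = 0.000535), with a pooled UMI ratio of 17.3 (95% counting interval 5.67 to 86.3). Neither later comparison was called (P12 against P0, log2 fold change 0.35, adjusted p = 0.524, and adult against P12, -0.08, adjusted p = 0.989).

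*Kcnip4* was low until birth and then rose (genes on either strand overlap its locus). It was at 7.30 and 2.14 CPM at E14.5 and at 4.43 and 2.94 CPM at P0. The P12 plates were at 26.2, 46.8, 53.8 and 39.8 CPM, all above the P0 plates (log2 fold change 3.14, SE 0.52, adjusted p = 0.000812). The adult plates were at 65.4, 39.8, 37.4, 18.9 and 25.9 CPM and overlapped those of P12 (log2 fold change -0.27, adjusted p = 0.567).

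The 2 DPP genes rose at different times. *Dpp6* was at 41.8 and 63.2 CPM at E14.5 and already at 236.8 and 251.3 CPM at P0 (log2 fold change 2.26, SE 0.24, adjusted p = 2.38e-05). It was then between 179.0 and 269.8 CPM at P12 and between 176.0 and 199.4 CPM in the adult, and neither later step was called (adjusted p = 0.993 and 0.411). *Dpp10* was at 6.79 and 15.4 CPM at E14.5, at 11.2 and 8.18 CPM at P0, and at 19.5, 23.7, 20.8 and 14.1 CPM at P12 (P12 against P0, log2 fold change 0.81, adjusted p = 0.0715). The adult plates were at 62.8, 56.3, 57.7, 55.6 and 58.2 CPM, well apart from the P12 plates. The adult rise had a log2 fold change of 1.58 (SE 0.20, adjusted p = 0.000208) and was called in all 17 alternatives.

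These counts stand beside large changes over all genes. From E14.5 to P0, 3 of the 8 tested genes were called higher, against 14.7% of all genes tested (27.8% in either direction). From P0 to P12 it was 2 of 8, against 9.10% (18.1% in either direction), and from P12 to adult 3 of 8, against 7.57% (14.1%). The P12 plates were higher than the E14.5 plates for 8 of 8 genes (25.5% of all genes, 51.2% in either direction), and so were the adult plates (29.2%, 57.6%). Of these calls from E14.5 to P12, *Dpp10* was lost in 4 of 13 alternatives, without P12 replicate 3 (adjusted p = 0.0719) and without E14.5 replicate 1 (0.243) among them, *Kcnd1* without E14.5 replicate 2 (0.0534) and after thinning each neuron to 7000 UMIs (0.0972), and *Kcnd2* without E14.5 replicate 1 (0.0591) or 2 (0.0533). These comparisons share plates, so their counts are not independent. The *Kcnip2* call of adult against E14.5 was lost in 9 of 16 alternatives, among them DESeq2, E14.5 neurons of clusters 1 and 2 alone (log2 fold change 0.55, adjusted p = 0.102) and adult neurons of clusters 1 and 5 alone. Adult against P0 gave 4 of 8 higher (18.0%, 34.4%), namely *Kcnip1*, *Dpp10*, *Kcnip4* and *Kcnd1*. Summed glial marker levels were also higher at P0 than at E14.5. From E14.5 to P0, 3 genes were also called with the P0 neurons of clusters 1 and 2 alone, where glial markers summed to between 102 and 111 CPM against 3252 to 3299 CPM in P0 cluster 3.

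Seen as a family, the KChIP transcripts changed in make-up. The 4 KChIP genes together were at 65.5 ± 20.7 CPM at E14.5, 174 ± 10.2 at P0, 265 ± 22.1 at P12 and 277 ± 20.6 in the adult. *Kcnip2* took 80.7% of KChIP UMIs at E14.5 and 81.1% at P0, 47.4 ± 14.2% at P12 and 28.5 ± 4.2% in the adult, while *Kcnip1* took 9.38%, 0.751%, 25.4 ± 14.0% and 49.8 ± 3.2%. The share of *Kcnip1* lay between 46.3% and 54.2% on the 5 adult plates and between 9.20% and 43.2% on the 4 P12 plates. That difference of 24.3 percentage points had an exact permutation p of 0.0159 (two-sided), the smallest that 5 against 4 plates can give. With each neuron thinned to 7000 UMIs it was 21.4 points (exact permutation p = 0.0794). How well each transcript is captured can differ between genes, so a share of UMIs is compared here between groups only.

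**Figure D2:**
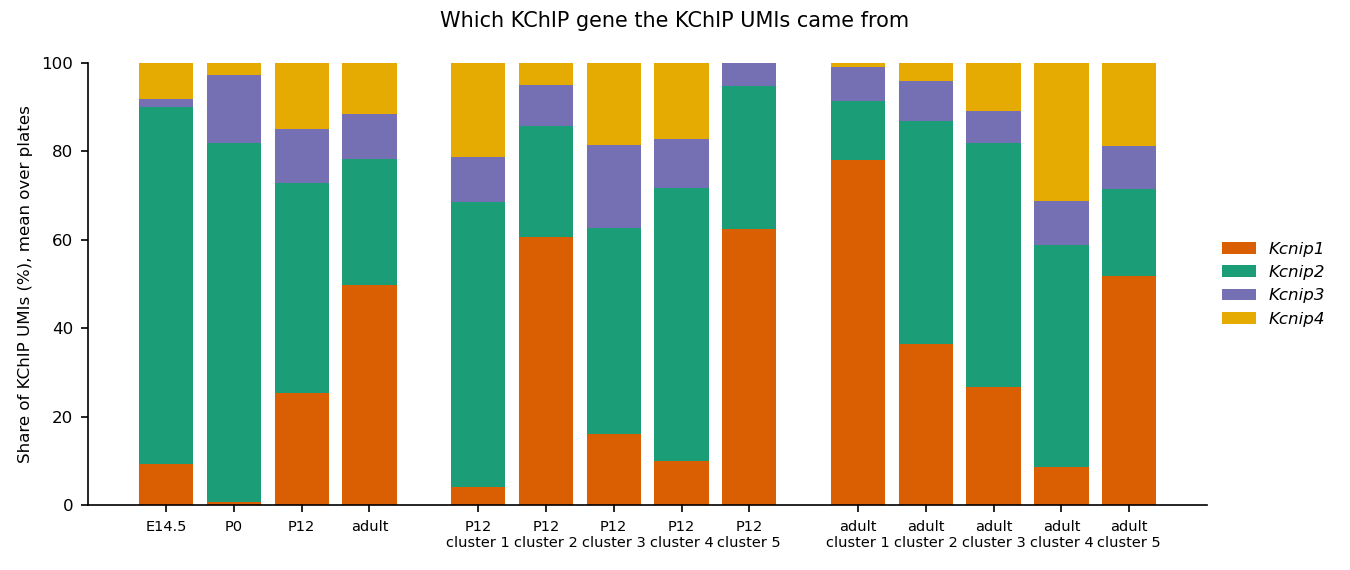
Share of KChIP UMIs (percent, stacked to 100) that came from each of the 4 KChIP genes, as the mean over plates, for the 4 stages, the 5 P12 clusters and the 5 adult clusters. *Kcnip2* fills 80.7% of the E14.5 bar and *Kcnip1* fills 78.1% of the bar of adult cluster 1 and 8.68% of that of adult cluster 4.

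Adult neurons had been divided by the authors into clusters, 5 of them numbered and holding 166 neurons, with 42 neurons outside. The study placed those outside in non-proprioceptor classes or in small clusters. They are part of the adult stage values and of the counts over all adult neurons. Clusters 1 (51 neurons) and 5 (31) are present on all 5 plates. Clusters 2 (15) and 4 (28) were found on replicates 1 and 2 alone, and of the 41 neurons of cluster 3 all but 3 came from replicates 3 to 5, so that clusters 2 to 4 and the plates cannot be fully told apart. The marker genes of the clusters were each highest, among the numbered clusters, in the cluster they mark. *Calb2* was at 214 ± 125 CPM in cluster 1, *Pou4f3* at 57.1 ± 8.10 CPM in cluster 5, *Tac1* at 184 ± 23.7 CPM in cluster 4, and *Nxph1* between 45.8 and 83.8 CPM on average in clusters 2 to 4. The clusters were found in these same neurons with all genes in view, so the tests between them say how far the plates repeat a difference and are not independent evidence. From these neurons the study had itself reported more *Kcnip1* in clusters 1 and 5 and more *Kcnip2* in clusters 2 to 4.

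*Kcnip1* and *Kcnip2* divided the adult clusters in opposite senses, *Kcnip4* and *Dpp10* were low in cluster 1, and *Kcnd2* was higher in cluster 5 than in clusters 1 and 3. Over 18 sums of UMIs (1 per cluster and plate with at least 2 neurons) and 7370 genes, 6 of the 8 tested genes were called for any difference across clusters, against 9.67% of all genes. *Dpp6* (adjusted p = 0.773) and *Kcnip3* (0.757) were not. The *Kcnd1* call (adjusted p = 0.0109) was lost without replicate 1, 3 or 4 (0.0901 to 0.151), on replicates 1 and 2 alone (0.235) and with no filter on low counts (0.0536). *Kcnd3* was again too sparse to test.

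**Figure D3:**
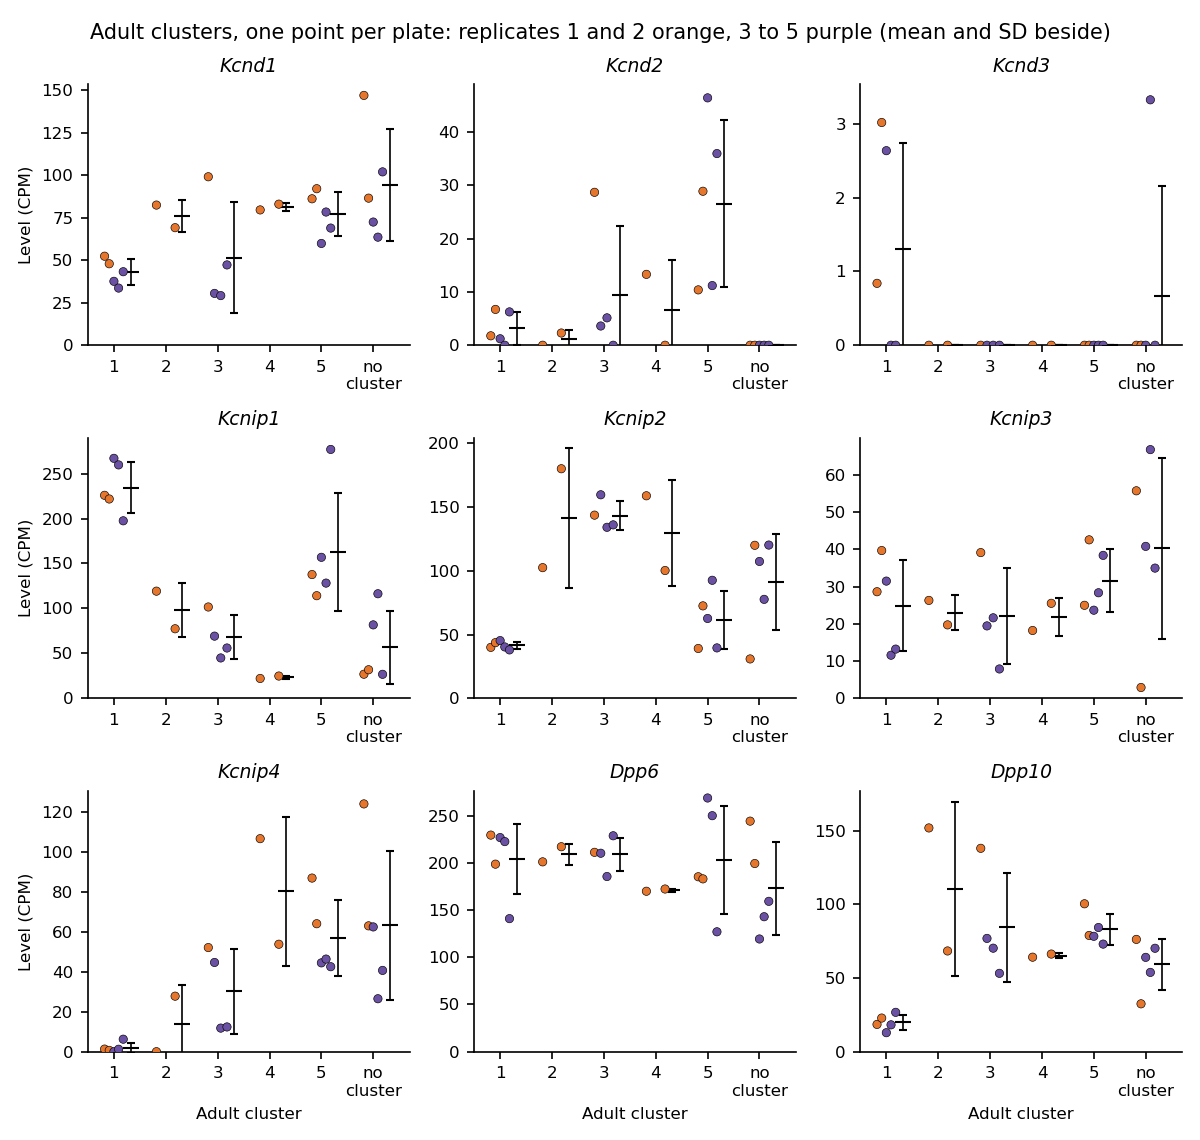
Level of each of the 9 genes (CPM, axis from 0, its range differs between panels) in the adult clusters and in adult neurons outside them. Each point is the mean over the neurons of a cluster on 1 plate, orange for replicates 1 and 2 and purple for replicates 3 to 5, and the dash with its bar is the mean ± SD over plates. In cluster 1 *Kcnip1* is between 197.5 and 266.9 CPM and *Kcnip4* is at or under 6.25 CPM on every plate, and in clusters 3 and 4 *Kcnip2* lies above all its cluster 1 points.

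In cluster 1 *Kcnip1* was at 225.8, 221.7, 266.9, 259.6 and 197.5 CPM on the 5 plates. In cluster 5 it was at 137.7, 114.2, 156.9, 128.2 and 276.8 CPM, the last from 3 neurons. Cluster 2 gave 119.3 and 77.5 CPM, cluster 3 gave 101.7, 69.3, 45.0 and 56.1 CPM, and cluster 4 gave 22.2 and 24.9 CPM. The order from the highest to the lowest mean was thus cluster 1, 5, 2, 3 and 4, and of the neighbours in that order only clusters 3 and 4 differed by the test in the fit without plates as a block (log2 fold change 1.71, SE 0.45, adjusted p = 0.0416). That step was lost in 8 of 13 alternatives, with plate as a replicate block (adjusted p = 0.122) and without any 1 of replicates 1 to 4 (0.0631 to 0.342) among them. The step from cluster 1 to cluster 5 (log2 fold change 0.58, adjusted p = 0.151) was called in 3 of 14 alternatives, with plate as a replicate block (0.00556), without adult replicate 5 (0.0231) and with sums of at least 4 neurons (0.0111). Clusters 1 and 5 together were above clusters 2 to 4 (log2 fold change 1.94, SE 0.21, adjusted p = 4.71e-06), a call kept in all 14 alternatives. Between its ends, clusters 1 and 4, the pooled UMI ratio was 12.3 (95% counting interval 7.03 to 24.0).

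*Kcnip1* was also found in more of the neurons of these clusters. It had a UMI in 51 of 51 neurons of cluster 1, 30 of 31 of cluster 5, 12 of 15 of cluster 2, 30 of 41 of cluster 3 and 11 of 28 of cluster 4. Median depth differed between the clusters, from 20138 UMIs in cluster 4 to 59922 in cluster 1. After each neuron was thinned to 7000 UMIs the shares were 76.9 ± 8.76% in cluster 1, 64.9 ± 20.0% in cluster 5, 60.2 ± 20.9% in cluster 2, 14.4 ± 11.4% in cluster 3 and 16.1 ± 7.03% in cluster 4.

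*Kcnip2* ran the other way. It was at 40.0, 43.7, 45.3, 40.3 and 38.0 CPM in cluster 1 and at 39.1, 72.4, 62.6, 92.4 and 39.5 CPM in cluster 5. Cluster 2 gave 102.3 and 179.7 CPM, cluster 3 gave 143.4, 159.3, 133.9 and 135.8 CPM, and cluster 4 gave 158.5 and 100.1 CPM. No plate of clusters 1 or 5 reached the lowest plate of clusters 2 to 4. The difference of clusters 1 and 5 from clusters 2 to 4 had a log2 fold change of -1.52 (SE 0.16, adjusted p = 4.71e-06) and was also called in all 14 alternatives. Clusters 2, 3 and 4 did not differ from one another by the test, nor did clusters 1 and 5 (log2 fold change -0.61, adjusted p = 0.164), and each of clusters 2, 3 and 4 was above both cluster 1 and cluster 5. Of these 6 steps the 2 that involve cluster 3 were still called whichever single plate was left out. The step from cluster 1 to cluster 2 was lost without replicate 2 (adjusted p = 0.384) and that from cluster 1 to cluster 4 without replicate 1 (0.0802), and those from cluster 5 to clusters 2 and 4 were lost without replicate 1, 2, 3 or 5 (0.0615 to 0.514). Thinned to 7000 UMIs, 5 of the 6 were lost (0.0666 to 0.645) and only that from cluster 1 to cluster 3 was called.

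**Figure D4:**
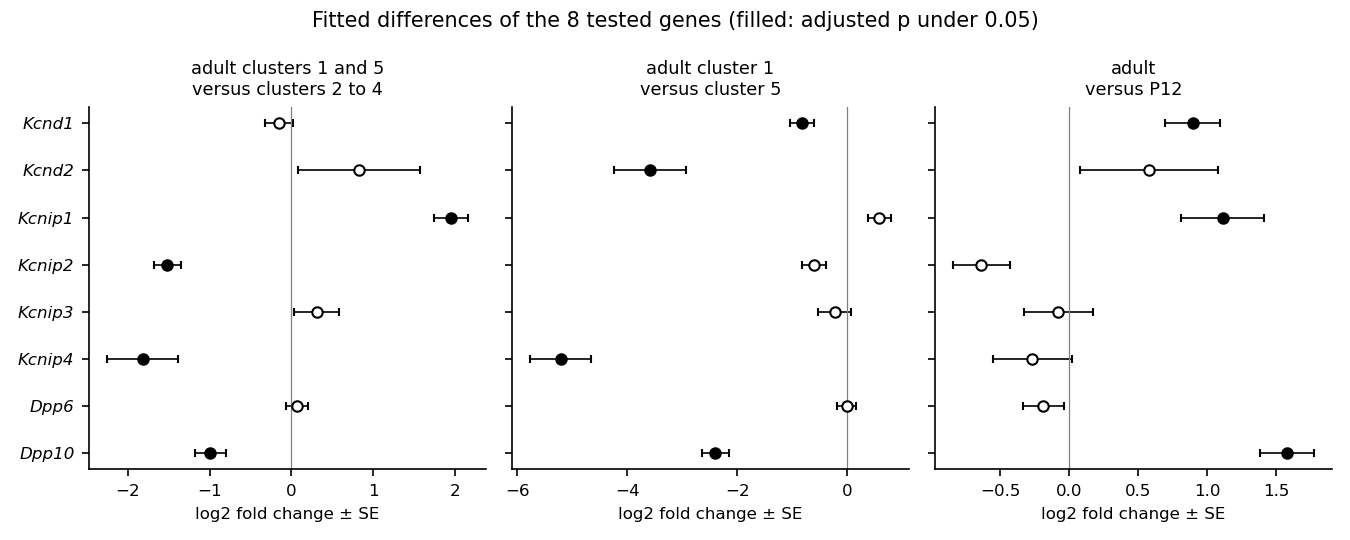
Fitted log2 fold change ± SE of the 8 tested genes in 3 comparisons, clusters 1 and 5 against clusters 2 to 4 in the adult, adult cluster 1 against cluster 5, and adult against P12 (the horizontal axes differ in range). Filled points passed an adjusted p under 0.05. *Kcnip1* (1.94) and *Kcnip2* (-1.52) lie on opposite sides of 0 in the first panel, and *Kcnip4* (-5.21) lies farthest from 0 in the second.

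Single neurons showed the same opposition. Every neuron of cluster 1 (51 of 51) had more *Kcnip1* than *Kcnip2* UMIs, as had 23 of 31 in cluster 5. It was so in 4 of 15 neurons of cluster 2, in 9 of 41 of cluster 3 and in 1 of 28 of cluster 4. Outside the numbered clusters it was so in 15 of 42. At P0 no neuron of 55 had more *Kcnip1* than *Kcnip2* UMIs, and at E14.5 it was 6 of 169.

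**Figure D5:**
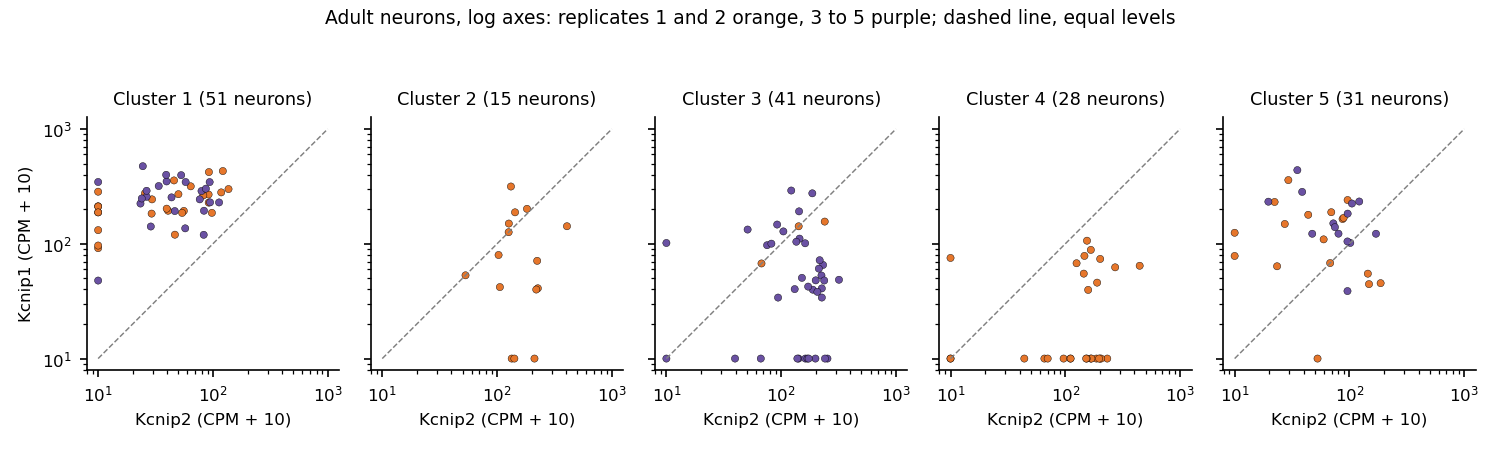
*Kcnip1* against *Kcnip2* in each adult neuron of the 5 clusters (CPM + 10, log axes, 1 point per neuron, orange for replicates 1 and 2 and purple for replicates 3 to 5). Points above the dashed line have a higher *Kcnip1* level, which holds for 51 of 51 neurons in cluster 1 and 1 of 28 in cluster 4, and points on the left or lower edge have no UMI of 1 of the genes.

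*Kcnip4* was lower in cluster 1 than in clusters 3, 4 and 5. It was at 1.30, 0.649, 0, 1.22 and 6.25 CPM in cluster 1, from 4 UMIs in 51 neurons. In cluster 5 it was at 86.9, 64.1, 44.5, 46.4 and 42.6 CPM, in cluster 4 at 106.7 and 53.8 CPM, in cluster 3 at 52.1, 44.7, 11.8 and 12.4 CPM, and in cluster 2 at 0 and 27.8 CPM. Every plate of cluster 5 lay above every plate of cluster 1 (log2 fold change of 1 against 5 -5.21, SE 0.56, adjusted p = 3.03e-06), with a pooled UMI ratio of cluster 5 to cluster 1 of 46.2 (95% counting interval 17.5 to 173). Clusters 3 and 4 were above cluster 1 too (log2 fold change of cluster 1 against each -4.10 and -5.75, adjusted p = 0.000717 and 5.02e-06), the first lost without replicate 3 (0.0517). Cluster 2, at 0 on 1 of its 2 plates, overlapped cluster 1, and that pair was not called (adjusted p = 0.109). The difference of clusters 1 and 5 from clusters 2 to 4 was called (log2 fold change -1.82, SE 0.44, adjusted p = 0.0156) but rested on single plates. It was not called without adult replicate 1 (adjusted p = 0.0653), replicate 3 (0.0992) or replicate 2 (0.947, log2 fold change 0.051), nor on replicates 3 to 5 alone (0.155).

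*Kcnip3* did not follow any of these divisions. Its cluster means lay between 21.9 ± 5.15 CPM in cluster 4 and 31.6 ± 8.40 CPM in cluster 5, and none of the 10 pairs of clusters was called for it. Its share of KChIP UMIs lay between 7.24% and 10.0% in the 5 clusters.

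The 4 KChIP genes together were at 303 ± 32.1 CPM in cluster 1, 276 ± 40.2 in cluster 2, 263 ± 61.7 in cluster 3, 255 ± 71.6 in cluster 4 and 312 ± 47.5 in cluster 5, and the plates of the clusters overlapped. Of these KChIP UMIs *Kcnip1* made up 78.1 ± 3.2% in cluster 1, 51.9% in cluster 5, 36.5% in cluster 2, 26.7% in cluster 3 and 8.68% in cluster 4. *Kcnip2* made up 13.3% in cluster 1, 19.7% in cluster 5 and between 50.1% and 55.2% in clusters 2 to 4. *Kcnip4* reached 31.1% in cluster 4 and 18.8% in cluster 5 and was 0.799% in cluster 1. UMIs of all 4 KChIP genes were found in 19 of 31 neurons of cluster 5 and in 2 of 51 neurons of cluster 1.

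Of the DPP genes, *Dpp10* differed between clusters and *Dpp6* was not called. *Dpp6* had a UMI in 208 of 208 adult neurons and cluster means between 171 ± 1.68 CPM (cluster 4) and 209 ± 11.3 CPM (cluster 2). *Dpp10* was at 18.5, 22.9, 12.9, 18.2 and 26.7 CPM in cluster 1 and at 100.5, 79.0, 78.4, 84.4 and 73.1 CPM in cluster 5. It was at 152.0 and 68.4 CPM in cluster 2, at 138.2, 77.0, 70.3 and 53.2 CPM in cluster 3 and at 64.2 and 66.3 CPM in cluster 4. All plates of cluster 1 lay under all plates of the other clusters. Cluster 1 was lower than cluster 5 (log2 fold change -2.40, SE 0.25, adjusted p = 1.91e-06) and than clusters 2, 3 and 4 (log2 fold change -2.55, -2.12 and -1.90, largest adjusted p = 0.000924), the last of these lost without replicate 1 (0.0626). The pooled UMI ratio of cluster 5 to cluster 1 was 5.46 (95% counting interval 3.93 to 7.70). For clusters 1 and 5 against clusters 2 to 4 the log2 fold change was -0.99 (SE 0.19, adjusted p = 0.0026), lost without adult replicate 1 (0.0941) and on replicates 3 to 5 alone (0.0721).

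Among the pore genes, *Kcnd2* had its highest mean in cluster 5. It was at 10.4, 28.9, 46.4, 11.2 and 35.9 CPM there, from 45 UMIs in 17 of 31 neurons. In cluster 1 it was at 1.77, 6.72, 1.22, 0 and 6.25 CPM, from 6 UMIs, and every plate of cluster 5 lay above every plate of cluster 1. Clusters 2, 3 and 4 had 1, 6 and 5 UMIs. Cluster 1 was lower than cluster 5 (log2 fold change -3.59, SE 0.66, adjusted p = 0.00149), with a pooled UMI ratio of cluster 5 to cluster 1 of 13.2 (95% counting interval 5.61 to 37.9), and cluster 3 was lower than cluster 5 (-2.70, SE 0.72, adjusted p = 0.0418), which was lost in 5 of 10 alternatives, without replicate 1, 2, 4 or 5 (0.0542 to 0.147) among them. Clusters 2 and 4 were not called against cluster 5 (adjusted p = 0.193 and 0.321). Adult neurons outside the clusters had 0 UMIs of *Kcnd2* in 42 neurons, which allows up to 1.81 CPM and a UMI in up to 7.14% of neurons.

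*Kcnd1* varied less. It was at 52.4, 47.9, 37.6, 33.6 and 43.2 CPM in cluster 1 and at 86.1, 92.1, 59.9, 78.3 and 68.9 CPM in cluster 5, without overlap. Cluster 2 gave 82.4 and 69.1 CPM, cluster 4 gave 79.6 and 83.0 CPM, and cluster 3 gave 99.1, 30.5, 29.2 and 47.2 CPM, the first from 2 neurons. Cluster 1 was lower than cluster 5 (log2 fold change -0.82, SE 0.21, adjusted p = 0.0239), a call lost in 9 of 13 alternatives (adjusted p up to 0.166), each of the 5 plates left out among them. Cluster 1 was also lower than cluster 4 (-0.97, SE 0.28, adjusted p = 0.0394) and cluster 3 lower than cluster 5 (-0.98, SE 0.25, adjusted p = 0.0324). The first was lost with plate as a replicate block (adjusted p = 0.0679) and without any 1 plate (0.0611 to 0.339), and the second without replicate 1, 3, 4 or 5 (0.0777 to 0.253).

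Cluster 1 against cluster 5 gave 4 of 8 genes called, all lower in cluster 1, against 2.81% of all genes called lower (4.76% in either direction). Clusters 1 and 5 against 2 to 4 also gave 4 of 8, 1 higher (2.93% of all genes) and 3 lower (2.70%), with 5.63% in either direction. Over the 10 pairs of clusters 24 of 80 tests were called, 3 of 8 in clusters 1 and 2 (1.18% of all genes), 4 in 1 and 3 (2.80%), 5 in 1 and 4 (7.26%), 4 in 3 and 5 (3.45%), 2 in 4 and 5 (2.27%) and 1 each in 2 and 5 (1.44%) and in 3 and 4 (3.41%). The *Kcnip1* call between clusters 1 and 2 (adjusted p = 0.0443) was lost without replicate 3 (0.169) or 4 (0.0668) and after thinning to 7000 UMIs (0.740). Without replicate 1 or 2, which leaves 1 sum of cluster 2, its log2 fold change was 1.75 or 1.02. No gene was called between clusters 2 and 3 (0% of all genes) or 2 and 4 (0.136%), where 1 and 2 genes had an unadjusted p under 0.05. Between clusters 2 and 4 *Kcnip1* (adjusted p = 0.141) was called higher in cluster 2 with replicates 1 and 2 alone, the plates that hold both (log2 fold change 2.07, adjusted p = 0.0125), with sums of at least 4 neurons (0.0398) and with no filter on low counts (0.00824), and the last setting also called *Kcnip4* lower (0.0357). With plate as a replicate block *Kcnip1* was also called between clusters 1 and 5, and *Kcnip4* was lower in cluster 2 than in cluster 5 (adjusted p = 0.0336, against 0.202 without the block).

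The plates themselves were compared within clusters 1 and 5. Replicates 1 and 2 differed from replicates 3 to 5 in 20.1% of all genes, but in 0 of the 8 tested genes of the family (edgeR, also 0 at an unadjusted p under 0.05). The log2 differences lay between -0.20 (*Kcnip2*) and 0.46 (*Kcnip4*). The difference of cluster 1 from cluster 5 was likewise not called to depend on the set of plates for any of the 8 genes (0 at an unadjusted p under 0.05, 0.0143% of all genes called). Summed glial markers ran from 171 to 694 CPM in cluster 1 and from 105 to 660.2 CPM in cluster 5, beside 306 to 697 CPM in cluster 2, 305 to 1074 in cluster 3 and 220.1 to 414 in cluster 4. The 4 cutaneous mechanoreceptor markers summed to between 227 and 521 CPM in cluster 1, 98.1 and 255 in cluster 5 and 37.2 and 190 in clusters 2 to 4. *Maf* made up most of these sums in cluster 1 (285 ± 122 CPM) and *Mafa* had 0 UMIs in all adult neurons. The 2 fibroblast markers summed to between 47.8 and 99.2 CPM in cluster 5 and 6.37 and 51.2 in cluster 1, most of it *Dcn*. The part of these markers in the cluster differences was not tested.

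At P12 the clusters were set against one another in the same way, after it was seen that *Calb2*, the marker of adult cluster 1, was at 1419 ± 372 CPM in P12 cluster 2 and at 478 ± 280 CPM in P12 cluster 5 and at most at 18.6 CPM on any plate of the other clusters. Clusters 2 (8 neurons) and 3 (17) lay on replicates 1 and 2, and clusters 1 (63), 4 (58) and 5 (8) on replicates 3 and 4, so that comparisons within a pair of plates are given too. Median depth ran from 16185 UMIs in cluster 1 to 74067 in cluster 2, and summed glial markers from 13.4 to 652 CPM in clusters 2 and 5 and from 195 to 576 CPM in the others. Cutaneous mechanoreceptor markers (3 of 4 with a UMI, *Mafa* at 0) summed to between 326 and 368 CPM in cluster 2, 209 and 246 in cluster 5 and 4.78 and 103 in clusters 1, 3 and 4, and their part in the differences was not tested. *Kcnip1* was high, and *Kcnip2* and *Kcnip4* low, in the P12 clusters with *Calb2*. *Dpp10* was lower there too, but its plate levels overlapped those of the other clusters. Of 7 tested genes (*Kcnd2* and *Kcnd3* were too sparse), these 4 were called for any difference across clusters, against 31.5% of 6209 genes. The *Dpp10* call was lost without replicate 1, 2 or 3 (adjusted p = 0.0654 to 0.0891).

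*Kcnip1* was at 227.5 and 88.2 CPM in P12 cluster 2 and at 303.8 and 80.6 CPM in cluster 5. It was at 30.6 and 34.7 CPM in cluster 3, 16.8 and 7.50 CPM in cluster 1 and 12.0 and 25.1 CPM in cluster 4. The 4 sums of clusters 2 and 5 lay above the other 6 (log2 fold change 3.16, adjusted p = 1.34e-08, called in all 10 alternatives). *Kcnip2* was between 40.9 and 99.5 CPM in clusters 2 and 5 and between 129.2 and 203.4 CPM in the others (log2 fold change -1.42, adjusted p = 2.04e-05, lost without P12 replicate 3, 0.0603, and after thinning, 0.0951). No *Kcnip4* UMI was found in the 8 neurons of cluster 5, which allows up to 7.64 CPM, and cluster 2 was at 12.0 and 9.05 CPM, while the other clusters lay between 27.1 and 80.1 CPM (adjusted p = 3.4e-05). *Dpp10* was between 0 and 13.4 CPM in clusters 2 and 5 and between 10.7 and 30.9 CPM in the others (log2 fold change -2.78, adjusted p = 0.00545, lost without P12 replicate 3, 0.338). Clusters 2 and 5 against the rest thus gave 4 of 7 called, against 15.9% of all genes, 1 higher (7.38%) and 3 lower (8.55%). *Kcnd1*, *Kcnip3* and *Dpp6* were not called.

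Within replicates 1 and 2, cluster 2 against cluster 3 gave the same 4 genes (3.91% of all genes called), with log2 fold changes of 1.91 for *Kcnip1* (adjusted p = 0.00722), -1.11 for *Kcnip2* (0.0310), -1.95 for *Kcnip4* (0.0447) and -4.11 for *Dpp10* (0.0141). DESeq2 called 1 of them. Leaving out replicate 1 or 2 leaves 1 sum per cluster, assumed to vary like the other clusters, with log2 fold changes of the same sign for these 4 genes. Without replicate 1 they were 0.99 for *Kcnip1*, -1.04 for *Kcnip2*, -2.42 for *Kcnip4* and -6.95 for *Dpp10*. Without replicate 1 none was called, and without replicate 2 the calls of *Kcnip2* (0.0766), *Kcnip4* (0.216) and *Dpp10* (0.0987) were lost, and that of *Kcnip2* also without replicate 3 (0.0704) or 4 (0.0698). Within replicates 3 and 4, cluster 5 against clusters 1 and 4 gave 3 genes (6.88% of all genes called), *Kcnip1* at 3.94 (adjusted p = 2.02e-07), *Kcnip2* at -1.58 (0.00155) and *Kcnip4* (0.000812). *Dpp10* was not called there. Leaving out P12 replicate 3 leaves 1 sum per cluster, with 2 neurons of cluster 5. The log2 fold changes were then 2.02 for *Kcnip1* and -0.80 for *Kcnip2*, and no fold is given for *Kcnip4*, which had no UMI in cluster 5. More *Kcnip1* than *Kcnip2* UMIs were found in 6 of 8 neurons of P12 cluster 2 and 7 of 8 of cluster 5, in 2 of 17 of cluster 3, and in 0 of 63 and 0 of 58 of clusters 1 and 4.

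At P0 and E14.5 no gene of the family was called between clusters. For P0 cluster 2 against clusters 1 and 3 (1.21% of all genes called), E14.5 cluster 1 against cluster 2 (2.65%) and E14.5 clusters 3 and 4 against clusters 1 and 2 (1.18%), only 3 genes passed the filter on low counts in each and 0 were called by edgeR. At an unadjusted p under 0.05 the counts were 1 (*Dpp6*, log2 fold change -0.37), 0 and 1 (*Kcnip2*). *Kcnip2* was at 48.3 and 15.2 CPM in E14.5 cluster 3 and had 0 UMIs in the only sum of cluster 4 (5 neurons), so no fold is given, beside 47.3 to 108.6 CPM in clusters 1 and 2. At the depth of E14.5, 11174 UMIs per neuron, 90 of 169 neurons had no KChIP UMI at all.

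A full Kv4 channel complex has a pore, a KChIP and a DPP, and neurons with a UMI of at least 1 gene of each kind were counted. Of adult neurons 182 of 208 had a Kv4, a KChIP and a DPP gene. On the plates this share was 87.9 ± 4.01%, and 89.3 ± 5.33% had a Kv4 gene, 98.2% a KChIP gene and 100% a DPP gene. All 31 neurons of cluster 5 had the 3 kinds. The share was 3.33% at E14.5, where depth is lowest, 64.9% at P0 and 68.0 ± 23.5% at P12.

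At a common depth of 7000 UMIs the share was 27.5 ± 8.17% on the adult plates (17.5 to 39.6%) and 12.6 ± 7.02% on the P12 plates (8.33 to 23.1%). The difference of 14.9 percentage points had an exact permutation p of 0.0317 (two-sided, the smallest possible being 0.0159). Without thinning, so that depth differed between the stages, it was 19.9 points (exact permutation p = 0.175). Also without thinning, with at least 2 UMIs per gene, it was 28.5 points (exact permutation p = 0.0476). Leaving out 1 plate gave between 11.8 and 18.4 points with exact permutation p between 0.0286 and 0.0714, where the smallest possible is 0.0286 or 0.0357. It passed 0.05 without adult replicate 4 or P12 replicate 2 and not without any other plate. Thinned shares were 1.95% at E14.5 and 6.45% at P0. In the adult clusters they ran from 16.6 ± 13.4% in cluster 1 to 44.8 ± 16.3% in cluster 5 and 49.1 ± 24.8% in cluster 4, and the plates of the clusters overlapped.

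Although *Kcnip1* and *Kcnip2* were opposed between clusters, most adult neurons held UMIs of both. Both were found in 138 of 208 neurons, 67.7 ± 10.4% on the plates, beside 67.5% for the product of the shares of each gene. Thinned to 7000 UMIs the share was 15.4 ± 4.01% (product 18.8%), and with at least 2 UMIs of each gene 43.6 ± 9.89% (product 43.6%). By cluster it was 84.5% in cluster 1, 93.1% in cluster 5, 100% and 72.7% on the plates of cluster 2, 66.7 to 100% on those of cluster 3 and 35.1 ± 2.48% in cluster 4. In cluster 4, whose median depth of 20138 UMIs was the lowest of the 5 clusters, 11 of 28 neurons had *Kcnip1*. It was 2.40% at E14.5, 5.31% at P0 and 45.7 ± 21.2% at P12. Of adult neurons 43 had UMIs of all 4 KChIP genes, 86 of 3, 62 of 2, 14 of 1 and 3 of none. Thinned to 7000 UMIs these counts were 1, 9, 57, 105 and 36.

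Other genes that bear on A-type currents were followed as a list of 16, among them the Kv1 and Kv3 pores *Kcna4* and *Kcnc4*, Kvβ and KCNE subunits, scaffold proteins and T-type calcium channels. Of 7 tested between stages, 2 were called from E14.5 to P0, the Kvβ gene *Kcnab2* higher (log2 fold change 1.13) and the T-type channel *Cacna1h* lower (-3.43). From P0 to P12 it was 4, 2 higher and 2 lower, among them *Kcnc4* (3.53), *Kcnab2* (1.91) and the scaffold *Akap5* (-3.15), and from P12 to adult 2, both higher (*Akap5* 2.23 and *Dlg4* 1.81). The list's median log2 fold changes were -0.47, -0.63 and 0.49, beside 0.01, 0.02 and 0.04 over all genes, of which 27.8%, 18.1% and 14.1% were called. Between adult clusters 1 and 5 and clusters 2 to 4, 1 of 5 was called, *Kcnc4*, the A-type Kv3 pore, lower in clusters 1 and 5 (log2 fold change -1.39, SE 0.18, adjusted p = 6.13e-05), and 0 of 5 between clusters 1 and 5 (5.63% and 4.76% of all genes). The medians there were -0.44 and -0.28, beside 0.03 and -0.0012 over all genes. At P12, in clusters 2 and 5 against the others, 1 of 3 tested was called, *Kcnc4* (-1.60), against 15.9% of all genes.

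A further list held 15 relatives of the auxiliary subunits, neuronal calcium sensors and peptidases of the families to which KChIPs and DPPs belong. Of 11 tested, 4 were called from E14.5 to P0 (3 higher, with *Vsnl1* at a log2 fold change of 5.31, and *Ncs1* lower at -1.28), 2 from P0 to P12, both lower (*Hpcal1* -1.50 and *Hpca* -2.51), and 3 from P12 to adult, all lower (*Hpcal1* -2.47, *Prep* -1.24 and *Hpca* -3.28), against 27.8%, 18.1% and 14.1% of all genes. The median log2 fold changes were 0.96, 0.04 and -0.38. Between the adult clusters 0 of 8 were called in each of the 2 main comparisons (medians 0.0043 and 0.11). *Ncs1* was called for any difference across clusters (adjusted p = 0.00917), and *Vsnl1* was higher in P12 clusters 2 and 5 (0.31, adjusted p = 0.0371), 1 of 8 tested, against 15.9% of all genes.

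The genes most like each family member over the 18 adult sums were found by Pearson's r of log2 CPM over 7369 other genes, as a description. The sums share plates, and the clusters differ in depth. For *Kcnip1* they were *Map7d2* (0.89), *Paqr4* (0.88) and *Tesc* (0.88), and for *Kcnip2* *Eml2* (0.86), *Slc22a17* (0.85) and *Kcnc4* (0.81). For *Kcnip4* they were *Scn7a*, *Kazald1* and *Tmtc1* (0.88 each), for *Dpp10* *Shf* (0.88), *Pip4k2a* (0.85) and *Ina* (0.85). *Kcnd2* was most like *Asic3* (0.92), an acid-sensing channel gene, and *Kcnd1* most like *Sfrp1* (0.88). Within the family r was -0.78 for *Kcnip1* and *Kcnip2* and 0.67 for *Kcnip4* and *Dpp10*.

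The genes lie apart on the genome (GRCm38, the build of mm10). *Kcnip1* is at chr11:33629339-33993152 and *Kcnip2* at chr19:45791839-45816061, *Kcnip3* at chr2:127456498-127522094 and *Kcnip4* at chr5:48389502-49524907, all on the minus strand. *Dpp10* is at chr1:123321471-124045559 on the minus strand and *Dpp6* at chr5:26817203-27727505 on the plus strand. *Kcnd1* is at chrX:7822289-7838280, *Kcnd2* at chr6:21215503-21729805 and *Kcnd3* at chr3:105452330-105674002, on the plus strand. Within the *Kcnip4* locus, opposite in strand, *Gm19932* had 441 UMIs, *5730480H06Rik* 253 and *Gm43670* 153 in the kept neurons, beside 518 of *Kcnip4*. Many genes on its own strand also lie within it, those with most UMIs being *Gm43341* (105) and *Gm43318* (70). The strand used in counting is not given in the sources used here, and strand cannot separate genes of the same strand. Reads of these overlapping genes thus cannot be told apart with certainty. Overlapping genes had few UMIs beside *Kcnip1* (at most 30 beside 1659) and *Dpp6* (*Gm16056*, 220 beside 3508).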

How the data were processed

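Single tdTomato+ neurons were measured by Plate-seq on 13 plates. Per the labels and the methods of the study, reads were aligned with STAR to mm10 (GRCm38), assigned to wells by barcode and collapsed by UMI, and wells with few genes or with glial signal were removed by the authors. The deposited values are UMI counts per gene and well, not normalized, and the deposited annotation gives the cluster of each kept neuron. Well counts total 680212 to 2387288 UMIs per plate over the kept neurons, and intervals cover counting error only. The version of the aligner and the strand of counting are not given in the sources used here.

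Here CPM were computed per neuron. Counts were summed per plate for stages, or per cluster and plate (at least 2 neurons), and compared with edgeR 4.0.16 in R 4.3.3 (quasi-likelihood F-test, TMM, filterByExpr, Benjamini-Hochberg over all genes tested). DESeq2 1.42.0, other filters and scalings, thinning to 7000 UMIs and leaving out plates were alternatives. Thinning left out 18 E14.5 and 2 P12 neurons. Clusters 1 and 5 of one adult plate deviated together (r = 0.190 to 0.508 over 7370 genes on the 5 plates), so plates pair the sums, and the plate was fitted as a block as an alternative. The fits were tested on simulated data. The gene family, the lists of related genes (by family) and the tests were chosen with earlier results of these data known. From each list the 3 called genes of smallest adjusted p were named, and the 3 genes most alike to a member exclude predicted genes. The P12 cluster contrasts were chosen after seeing the data. An alternative on a subset of neurons and some genes of the lists are not reported here.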

Additional observations from a re-analysis of the deposited data

Results flagged for a closer look

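In 54 groups of 4 or 5 plates, 4 held a plate that stood apart from the others by Dixon's test at the 95% level, where chance gives about 1 in 20. *Kcnip1* in adult cluster 5 was at 276.8 CPM on replicate 5 (3 neurons, 44 UMIs) and between 114.2 and 156.9 CPM on the others. *Kcnip4* in adult cluster 1 was at 6.25 CPM on replicate 5, from 1 UMI, and at 0 to 1.30 CPM on the others. *Dpp6* over all adult neurons was at 176.0 CPM on replicate 5 and between 195.4 and 199.4 CPM on the others. *Kcnd3* in adult neurons outside the clusters was at 3.32 CPM on replicate 4, from 2 UMIs, and at 0 on the others.

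Wells with at least 2000 genes that the annotation leaves out (551, from 0 to 77 per plate) also held UMIs of all 9 genes. They had 961 of *Kcnd1*, 103 of *Kcnd2* and 39 of *Kcnd3*. They had 1380 of *Kcnip1*, 3052 of *Kcnip2*, 617 of *Kcnip3* and 610 of *Kcnip4*, and 4778 of *Dpp6* and 677 of *Dpp10*. On adult plates *Kcnip1* was between 51.6 and 75.8 CPM in these wells and between 100.2 and 131.1 CPM in the kept neurons, while *Kcnip2* was between 119 and 151 CPM against 88.7 to 109.0 CPM.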

How the results depend on the processing

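Of 2307 alternative values for 189 gene results, 2128 stayed on the same side of the threshold, 139 lost the call and 37 gained one. A further 3, called in the main fit or in the alternative, changed sign. Signs were not compared where neither was called, and tests of any difference have no sign. The log2 fold change of *Kcnip2* in adult clusters 1 and 5 alone against E14.5 was at -0.087, *Kcnip4* in clusters 1 and 5 against 2 to 4 between -2.01 and 0.051 when 1 plate was left out (0.051 without adult replicate 2), and *Kcnd1* in cluster 3 against 5 on replicates 1 and 2 at 0.055. P12 replicates 1 and 2 alone gave 1 call against the adult.

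After thinning, 3 genes of the family could be tested between clusters. This left 2 calls for clusters 1 and 5 against 2 to 4 (4 without thinning) and 2 across adult clusters (6). The 4 genes called for cluster 1 against 5 (*Kcnd1*, *Kcnd2*, *Kcnip4* and *Dpp10*) were too sparse to retest. The 0 calls there (4) were thus fixed beforehand and say nothing of these genes at equal depth. Nor were *Kcnip4* and *Dpp10* retested for clusters 1 and 5 against 2 to 4 or for P12 cluster 2 against 3. The last gave 0 calls (4), with *Kcnip1* (adjusted p = 0.0765) and *Kcnip2* (0.672) lost. Thinning also left 5 of 24 in the adult pairs, 1 across P12 clusters and 1 for P12 cluster 5 against 1 and 4 (3). Adult replicates 3 to 5 alone gave 2, 2 and, over the pairs, 9 calls, and replicates 1 and 2 alone gave 2 for cluster 1 against 5 and 15 over the pairs. For P12 cluster 2 against 3, DESeq2 called 1 and sums of at least 4 neurons 1. With plate as a replicate block, cluster 1 against 5 gave 5 calls. Over the pairs the block lost *Kcnd1* in clusters 1 and 4 and *Kcnip1* in 3 and 4, gained *Kcnip1* in 1 and 5 and *Kcnip4* in 2 and 5, and changed no other call.

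Leaving out 1 plate gave 2 to 3 calls for P0 against E14.5 and for P12 against P0, 2 to 4 for adult against P12, for clusters 1 and 5 against 2 to 4 and for cluster 1 against 5, 4 to 6 across adult clusters, 13 to 19 over the pairs, 3 to 4 across P12 clusters and 0 to 3 for both P12 contrasts within plates, where 1 sum per cluster can remain. The share of neurons with the 3 kinds of subunit then differed by 11.8 to 18.4 points (19.9 without thinning), the *Kcnip1* share by 18.9 to 30.2 points (21.4 thinned), and neurons with both *Kcnip1* and *Kcnip2* by plate were 64.7 to 70.7% (15.4% thinned, 43.6% with at least 2 UMIs). The causes were not tested. For P0 and E14.5 clusters, leaving out a plate leaves no residual degrees of freedom.

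Depth limits *Kcnd2* and *Kcnd3*, which had 88 and 33 UMIs in all neurons.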
